A study of Caenorhabditis elegans with 6 samples.

Results

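The genes described here handle heavy metals and zinc in the nematode Caenorhabditis elegans. They are the metallothionein genes mtl-1 and mtl-2, the cadmium-responsive genes cdr-1, cdr-2, cdr-4 and cdr-6, and the zinc transporter genes cdf-1, cdf-2 and ttm-1. A gene was taken where a probe set of the array carried its symbol and no other, with the brightest kept if there were several. All 9 genes were found, each with 1 probe set, among 25478 genes measured in that way. Whole larvae of the wild-type strain N2, staged as L4 hermaphrodites, were the source of total RNA. One set of larvae had sodium perchlorate at 1 mg/mL both in their agar and in their Escherichia coli OP50 food (perchlorate, n = 3 arrays), and the other set grew on plain nematode growth medium (control, n = 3 arrays), each for 48 hours from L1 at 20 °C. The comparison asks how growth on this oxidising salt relates to transcript levels. The protocol fields of the controls also describe the exposure, whereas their titles and treatment entries call them controls, and the titles were followed.

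Metallothioneins are small cysteine-rich proteins that bind cadmium, zinc and copper, and in C. elegans both genes are known for strong induction by cadmium, chiefly in the intestine. The cdr genes are named after cdr-1, an intestinal gene switched on by cadmium whose product sits in lysosomes. Zinc in the worm is held in balance by cation diffusion facilitators, which move zinc out of the cytosol, and by ZIP proteins, which bring it in. High zinc activates the nuclear receptor HIZR-1, which switches on cdf-2, ttm-1 and mtl-1 in intestinal cells.

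Levels are log2 values made by RMA, a method that corrects background, equalises the arrays' distributions and summarises probes, so that a difference of 1 is a 2-fold change. Median levels of the tested probe sets were between 5.81 and 5.89 on the perchlorate arrays and between 5.83 and 5.87 on the control arrays. Perchlorate replicate 1 stood apart on the first principal component, which held 38.9% of the variance, with a score of 47.7, where replicates 2 and 3 had 12.2 and 13.1 and the controls -27.2 to -20. Separate cultures are not stated for the replicates, so each p-value measures only the spread among these arrays, which may be technical. Of 10 intestine markers, 9 lay lower with perchlorate, with a median log2 difference of -0.21, and their summed linear level ran from 16586 to 18314 on perchlorate arrays and from 19730 to 20169 on control arrays. Markers of some other tissues lay lower too, all 6 of the epidermis with a median of -0.28, all 5 of body wall muscle with -0.32 and all 5 of neurons with -0.19. Of the 4 measured sperm genes of the L4 germline, 3 lay higher and 1 lower, with a median of 0.08. Over all tested probe sets 44.8% lay lower with perchlorate. All 10 moulting genes lay lower, with a median of -1.24 and summed linear levels of 1299 to 2970 with perchlorate and 4327 to 5463 in controls. Of the 7 measured genes of adult yolk and cuticle, 5 lay higher with perchlorate and 2 lower, with a median of 0.21. These genes were above the upper quartile of every array. Their summed level was 24687 to 28626 with perchlorate and 23466 to 24677 in controls. No marker was at 0, and the part of these shifts in the results below was not tested beyond the values relative to the intestine markers given further on. In RNA of whole larvae, fewer cells of a type and less RNA per cell cannot be told apart. Whether the groups differed in developmental stage was not tested.

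None of the 9 metal response genes passed the test in either direction (limma, Benjamini-Hochberg adjustment over 26192 probe sets, threshold 0.05), with adjusted p between 0.159 and 0.913. Of all tested probe sets 2 passed, or 0.00764%, both of them lower. One member, cdr-4, had an unadjusted limma p under 0.05 and lay lower, beside 16.4% of all tested probe sets in either direction and 7.92% lower. The members' differences ran from -0.48 to 0.28, with 4 above 0 and 5 below 0. Their median was -0.04, beside 0.03 over all tested probe sets. The 95% intervals of 8 members lay within a 2-fold change either way, and those of 6 within 1.5-fold. The interval of cdf-2 reached just past 2-fold on the lower side. Without perchlorate replicate 1 none passed either, and cdr-4 was again the 1 member at an unadjusted p under 0.05, beside 14.3% of all tested probe sets.

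**Figure D1:**
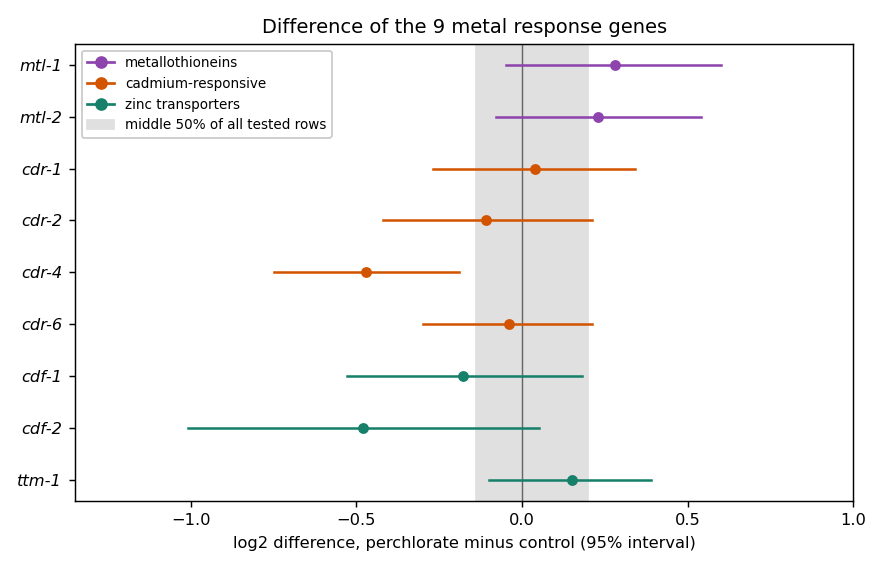
Points give the log2 difference, perchlorate minus control, of each metal response gene and lines its 95% limma interval (n = 3 arrays per group); the grey band holds the middle 50% of all tested probe sets. The interval of cdr-4, -0.75 to -0.19, is the one of 9 that does not include 0, before adjustment.

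The means of both metallothionein genes were above those of the controls with perchlorate, but neither gene passed the test. For mtl-1, whose product binds metals and whose promoter is also a target of the insulin pathway factor DAF-16, levels were 8.42, 8.14 and 8.57 on the perchlorate arrays, against 8.11, 8.04 and 8.15 on the control arrays. Perchlorate replicates 1 and 3 were above all controls, while replicate 2 lay within the control range, so the groups overlapped. The mean was 8.38 ± 0.219 with perchlorate and 8.10 ± 0.0537 in controls (SD, n = 3 each). The log2 difference was 0.28 (SE 0.138, 95% interval -0.05 to 0.60), or 1.21 times the control level, at a limma adjusted p of 0.367.

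The second metallothionein gene, mtl-2, an intestinal gene in worms exposed to cadmium, was at 12.31, 12.19 and 12.57 on the perchlorate arrays, against 12.17, 12.06 and 12.16 on the control arrays. Every perchlorate value was above every control value, by a gap of 0.021 between the closest pair. Groups also lay apart without overlap in 24% of all tested probe sets, and with perchlorate higher in 12.8%. The mean was 12.36 ± 0.192 with perchlorate and 12.13 ± 0.0618 in controls (SD, n = 3 each). The log2 difference was 0.23 (SE 0.131, 95% interval -0.08 to 0.54), or 1.17 times the control level, at a limma adjusted p of 0.429. The upper limits of the intervals were 1.52-fold for mtl-1 and 1.45-fold for mtl-2.

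The perchlorate arrays fell in the same order in the 2 metallothionein genes. Relative to the control mean, mtl-1 was at 0.32, 0.04 and 0.47 on perchlorate arrays 1, 2 and 3 in log2 units, and mtl-2 at 0.19, 0.06 and 0.44. In both genes perchlorate replicate 3 was the highest array and replicate 2 the lowest of the treated ones. The highest control array was replicate 3 for mtl-1 and replicate 1 for mtl-2. How many of all tested probe sets had this order of perchlorate arrays was not counted, so it is not read as particular to the pair. The gene aex-1 had it too, at 6.98, 6.83 and 7.16, but it was picked for its closeness to mtl-1, as described below. The log ratio of mtl-1 to mtl-2 moved by 0.05 between groups (exact two-sided permutation p = 0.4), less than the SD of 0.0786 among the perchlorate arrays. One array decided much of the size: without perchlorate replicate 3 the differences were 0.18 for mtl-1 and 0.12 for mtl-2, and without replicate 2 they were 0.40 and 0.31. Without perchlorate replicate 1 they were 0.26 and 0.25.

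**Figure D2:**
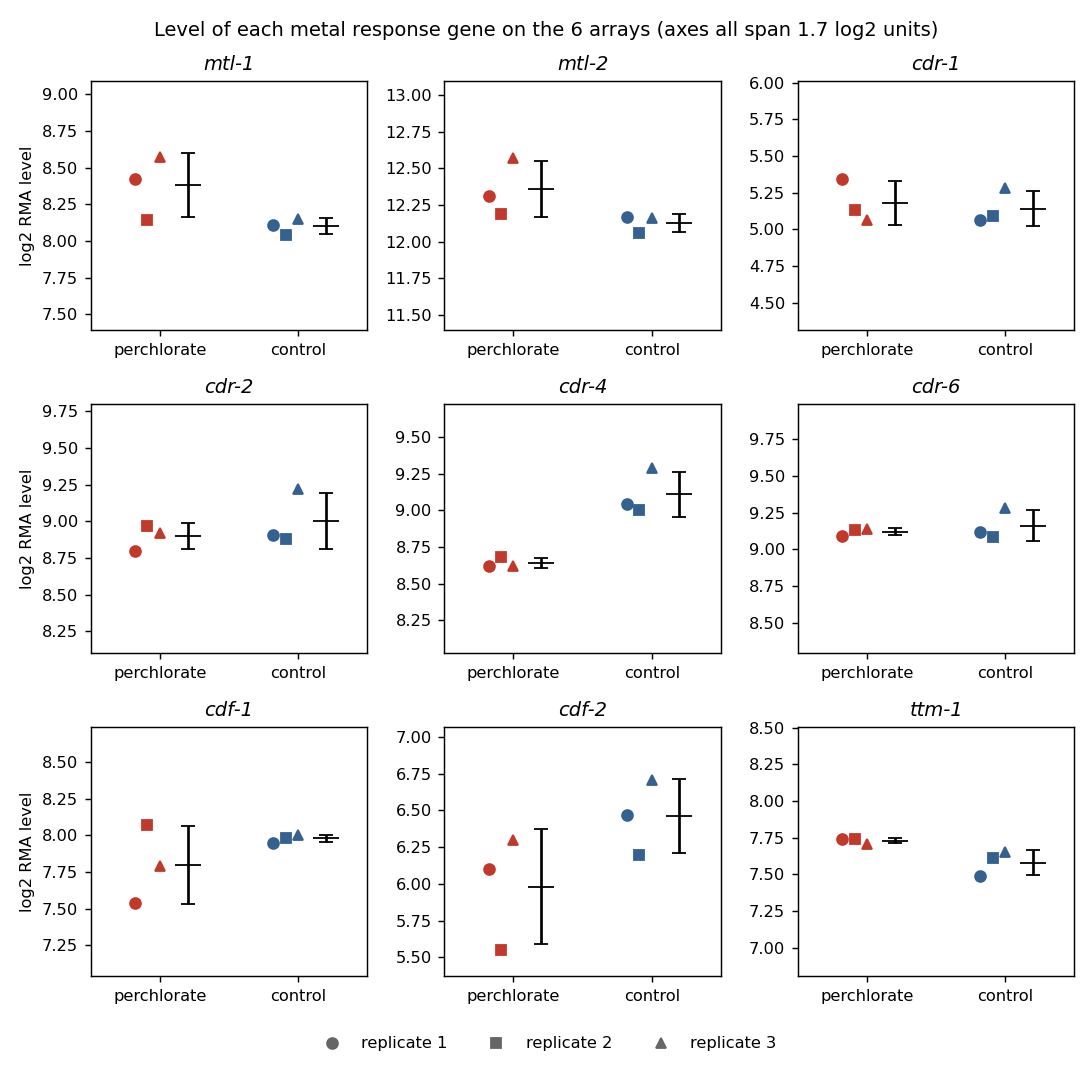
Each panel shows the log2 RMA level of 1 metal response gene on the 3 perchlorate arrays (left, red) and the 3 control arrays (right, blue), with symbols for the replicate number and bars for mean ± SD; every vertical axis spans the same number of log2 units. The groups lie apart without overlap in 3 of the 9 panels, mtl-2 and ttm-1 (higher) and cdr-4 (lower), beside 24% of all tested probe sets.

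Among the cadmium-responsive genes, cdr-4 lay lower with perchlorate on every array, and its 3 relatives showed differences near 0. The family encodes proteins with similarity to glutathione S-transferases. In the RefSeq gene table cdr-2 lies next to cdr-6 on one side and cdr-3 on the other, and cdr-6 next to cdr-7. The array names a single gene for each probe set used here, but related genes may share probe sequence, and no probe sequence was checked.

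Levels of cdr-4, which is known in C. elegans to respond to cadmium and to other stresses, were 8.62, 8.68 and 8.62 on the perchlorate arrays, against 9.04, 9 and 9.29 on the control arrays. The groups lay apart by 0.324 between the closest pair of arrays, and the perchlorate values were nearly identical to each other. Groups lay apart with perchlorate lower in 11.2% of all tested probe sets. The mean was 8.64 ± 0.0326 with perchlorate and 9.11 ± 0.154 in controls (SD, n = 3 each). Perchlorate minus control, the log2 difference was -0.47 (SE 0.119, 95% interval -0.75 to -0.19), or 0.723 times the control level. Its unadjusted limma p was 0.00549, which ranked 903 among 26192 probe sets, and its limma adjusted p of 0.159 did not pass. On leaving out each array in turn the difference stayed between -0.52 and -0.38, and it was -0.46 without perchlorate replicate 1.

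The founding member cdr-1, which worms use against cadmium toxicity, was at 5.34, 5.13 and 5.06 on the perchlorate arrays, against 5.06, 5.09 and 5.28 on the control arrays. These groups overlapped, and all values were below the array medians. Its log2 difference was 0.04 (SE 0.128, 95% interval -0.27 to 0.34, limma adjusted p = 0.913), and it was -0.05 without perchlorate replicate 1.

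For cdr-2 the levels were 8.80, 8.97 and 8.92 on the perchlorate arrays, against 8.91, 8.88 and 9.22 on the control arrays. Control replicate 3 was the array of cdr-2 that stood off, and without it the difference was 0; without perchlorate replicate 1 it was -0.06. With all arrays the log2 difference was -0.11 (SE 0.133, 95% interval -0.42 to 0.21, limma adjusted p = 0.73).

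For cdr-6 the levels were 9.09, 9.13 and 9.14 on the perchlorate arrays, against 9.12, 9.08 and 9.28 on the control arrays. The perchlorate values of cdr-6 all fell inside the control range. The log2 difference was -0.04 (SE 0.109, 95% interval -0.30 to 0.21, limma adjusted p = 0.874), and it was 0.02 without control replicate 3 and -0.03 without perchlorate replicate 1.

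Control replicate 3 was the highest control array in all 4 cdr genes, and in 8 of the 9 metal response genes. The share of all tested probe sets that were highest on that array was not counted, so this order is not read as particular to these genes. A ratio between 2 genes on the same array cancels a shift that both share. Relative to cdr-6 and to the control mean, cdr-4 was at -0.41, -0.40 and -0.46 in log2 units on the perchlorate arrays, against -0.03, -0.03 and 0.06 on the control arrays. The difference in this log ratio was -0.42, with an SD of 0.0351 with perchlorate and 0.0488 in controls (n = 3 each). The ratio of cdr-2 to cdr-4 lay higher by 0.36 and that of cdr-1 to cdr-4 by 0.50, again with no overlap of the groups. All 3 ratios hold cdr-4, whose own groups lay apart, so they largely restate its level and are not separate results. How often ratios lie apart over all gene pairs was not counted. Each of these 3 ratios had an exact two-sided permutation p of 0.1, the smallest that 3 arrays against 3 can give. Adjusted over the 10 pairs of genes compared within the metallothionein, cdr and zinc transporter groups, it was 0.2, which does not pass a threshold of 0.05. The ratios among cdr-1, cdr-2 and cdr-6 moved by -0.06 to 0.14, with exact p between 0.4 and 0.8. These ratios were chosen for comparison after the levels were seen.

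**Figure D3:**
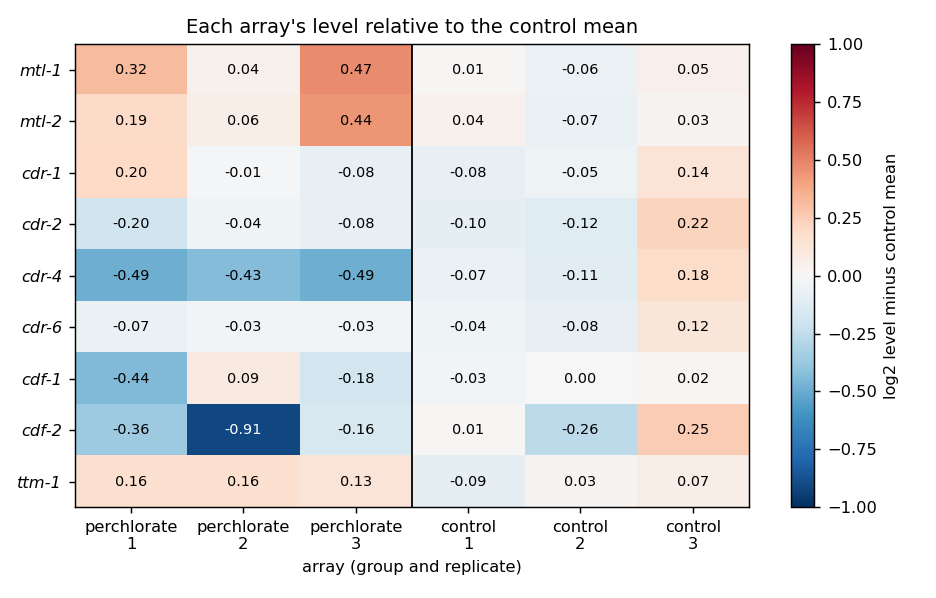
Colours and numbers give the log2 level of each metal response gene (rows) on each array (columns, perchlorate on the left and control on the right) minus the mean of the 3 control arrays. The row of cdr-4 is even across the perchlorate arrays at -0.49, -0.43 and -0.49, while that of cdf-2 runs from -0.91 to -0.16.

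The zinc transporter genes did not move one way. The vesicular transporter gene cdf-2, whose product loads zinc into the lysosome-related gut granules where worms store it, was at 6.10, 5.55 and 6.30 on the perchlorate arrays, against 6.47, 6.20 and 6.71 on the control arrays. Perchlorate replicate 2 was the lowest array, and replicate 3 lay above control replicate 2, so the groups overlapped. The mean was 5.98 ± 0.392 with perchlorate and 6.46 ± 0.253 in controls (SD, n = 3 each). The log2 difference was -0.48 (SE 0.224, 95% interval -1.01 to 0.05), or 0.719 times the control level, at a limma adjusted p of 0.344. Its size rested on perchlorate replicate 2, without which it was -0.26, whereas it was -0.54 without replicate 1.

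The plasma membrane exporter gene cdf-1, known for lowering cytosolic zinc and thereby favouring Ras signalling in vulval cells, was at 7.54, 8.07 and 7.79 on the perchlorate arrays, against 7.95, 7.98 and 8 on the control arrays. The perchlorate arrays fell on both sides of a narrow control range. The mean was 7.80 ± 0.264 with perchlorate and 7.98 ± 0.0253 in controls (SD, n = 3 each). For cdf-1 the log2 difference was -0.18 (SE 0.151, 95% interval -0.53 to 0.18, limma adjusted p = 0.6), and it was -0.05 without perchlorate replicate 1 and -0.31 without replicate 2.

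The exporter gene ttm-1, found as a target of p38 kinase signalling after exposure to a pore-forming toxin and known to excrete zinc into the gut lumen, was at 7.74, 7.74 and 7.71 on the perchlorate arrays, against 7.49, 7.61 and 7.65 on the control arrays. Every perchlorate value was above every control value, by a gap of 0.063, as was so in 12.8% of all tested probe sets. The mean was 7.73 ± 0.0142 with perchlorate and 7.58 ± 0.0845 in controls (SD, n = 3 each). For ttm-1 the log2 difference was 0.15 (SE 0.105, 95% interval -0.10 to 0.39), or 1.11 times the control level, at a limma adjusted p of 0.525, and it was 0.14 without perchlorate replicate 1. The log ratio of cdf-1 to ttm-1 differed by -0.32 and that of cdf-2 to ttm-1 by -0.62, without overlap of the groups in the first and with perchlorate replicate 3 level with control replicate 2 at -0.29 in the second. Both had the smallest exact permutation p of 0.1, and the ratio of cdf-1 to cdf-2 had 0.6. Adjusted over the 10 pairs, the exact p of 0.1 became 0.2. The ratios to ttm-1 share a gene whose own groups lay apart, so they are not separate results.

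**Figure D4:**
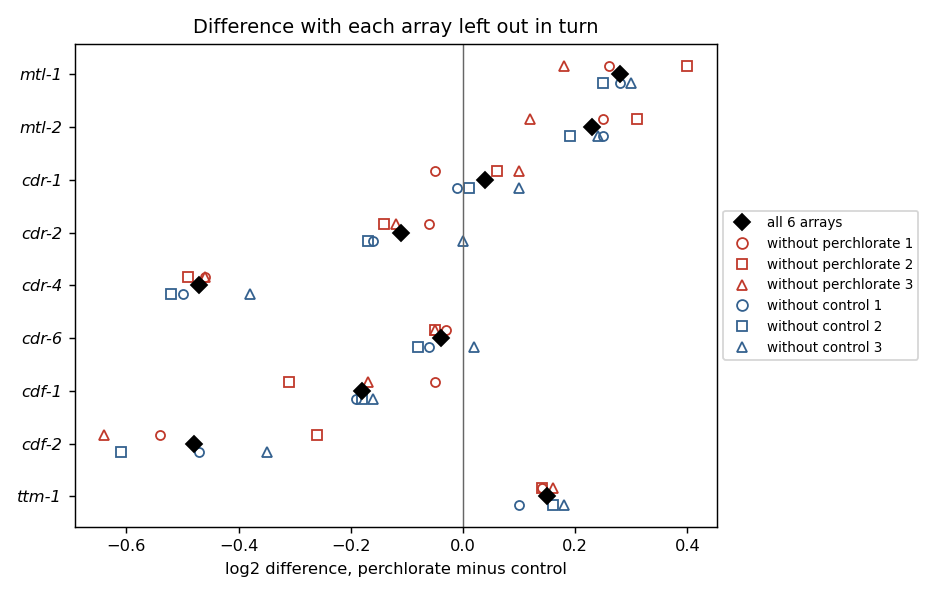
Black diamonds give the log2 difference, perchlorate minus control, with all 6 arrays, and open symbols the same with 1 array left out (red perchlorate, blue control, shape by replicate). No open symbol of cdr-4 lies above -0.38 or of mtl-1 below 0.18, whereas those of cdr-1, cdr-2 and cdr-6 reach or cross 0.

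Because most of these genes are known from the intestine, their levels were also set against the mean log2 level of the 10 intestine markers on each array, which itself differed by -0.24 between groups. On that scale mtl-1 was at 0.64, 0.20 and 0.71 on the perchlorate arrays, against 0.02, -0.04 and 0.02 on the control arrays, a log2 difference of 0.51. The difference was 0.47 for mtl-2 and 0.38 for ttm-1, each without overlap. For cdr-4 the values were -0.17, -0.28 and -0.25 with perchlorate, against -0.05, -0.09 and 0.14 in controls. The groups of cdr-4 remained apart, with a difference of -0.23 in place of -0.47. Groups lay apart in 6 of the 9 genes, 5 of them higher (mtl-1, mtl-2, cdr-1, cdr-6 and ttm-1) and cdr-4 lower. On the same scale groups lay apart in 41.5% of all tested probe sets, 38.4% higher and 3.12% lower. The markers' own shift adds to every gene alike and gives all tested probe sets a median difference of 0.27 in place of 0.03, so this scale shows change relative to those 10 genes and not a rise in RNA.

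Of 39 other metal-handling genes listed for comparison, 36 were measured by a probe set of their own, and cdr-5, cdr-7 and aip-1 were not analysed here. None of the 36 passed in either direction (limma adjusted p from 0.148 to 0.986). With an unadjusted limma p under 0.05, 4 lay lower and 0 higher, beside 7.92% lower and 8.46% higher of all tested probe sets. Of the 36, 16 lay above 0 and 20 below 0, with a median log2 difference of -0.02. Groups lay apart in 10, 2 higher and 8 lower, beside 24% of all tested probe sets, 12.8% higher and 11.2% lower. Without perchlorate replicate 1, 0 passed and 4 had an unadjusted limma p under 0.05, beside 14.3% of all tested probe sets.

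The smallest p belonged to vhp-1, which encodes a phosphatase that restrains the stress kinases KGB-1 and PMK-1 and is known for its role in heavy metal tolerance. Its levels were 8.95, 8.93 and 9.09 on the perchlorate arrays, against 9.59, 9.49 and 9.41 on the control arrays. All perchlorate values of vhp-1 were lower than all control values, and the log2 difference was -0.51 (SE 0.112, 95% interval -0.77 to -0.24, limma adjusted p = 0.148). With a trended and robust prior its limma adjusted p was 0.044, and over all alternatives it lay between 0.044 and 0.417. The kinase genes of the same pathway also lay below 0, at -0.23 for mlk-1, -0.15 for mek-1 and -0.20 for kgb-1, and none of these passed.

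Of the 14 zinc importer genes of the ZIP family, 7 lay above 0 and 7 below 0, with a median of 0.01. The importer gene zipt-7.2 was at 8.48, 8.77 and 8.62 on the perchlorate arrays, against 9.23, 9.04 and 9.13 on the control arrays, with no overlap. Its log2 difference was -0.51 (SE 0.123, limma adjusted p = 0.152). For zipt-17 the levels were 5.80, 6.39 and 5.95 with perchlorate, against 6.49, 6.79 and 6.69 in controls, again with no overlap. Its log2 difference was -0.62 (SE 0.177, limma adjusted p = 0.184). Among genes above 0, zipt-3 differed by 0.21 (limma adjusted p = 0.407) and zipt-15 by 0.26 (0.44), and smf-3, a divalent metal transporter gene of manganese and iron uptake, by 0.30 (0.464).

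The known regulators of metal-induced transcription gave no call. The zinc sensor gene hizr-1 differed by -0.01 (SE 0.139, limma adjusted p = 0.986), with 5.69, 5.30 and 5.44 on the perchlorate arrays, against 5.47, 5.60 and 5.38 on the control arrays. The intestinal GATA factor gene elt-2, whose product is needed for metallothionein expression, differed by -0.22 (SE 0.149, limma adjusted p = 0.508). The Mediator subunit gene mdt-15, a partner of HIZR-1, was at 9.51, 9.68 and 9.62 with perchlorate, against 9.98, 9.95 and 9.87 in controls, and differed by -0.33 (SE 0.108, limma adjusted p = 0.215). Its groups did not overlap. The phytochelatin synthase gene pcs-1 differed by 0.19 and the heavy metal transporter gene hmt-1 by -0.16, both with overlapping groups. The nuclear, metal-induced genes numr-1 and numr-2, which are close copies of each other and may share signal, differed by 0.27 and 0.11. On single arrays numr-1 ran from 3.41 to 4.59 with perchlorate and from 2.99 to 4.62 in controls, the widest spread of the list. Its level was low: lower quartiles of the arrays were 3.96 to 4.09. It lay under them on perchlorate replicates 1 and 3 and on control replicates 1 and 2.

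**Figure D5:**
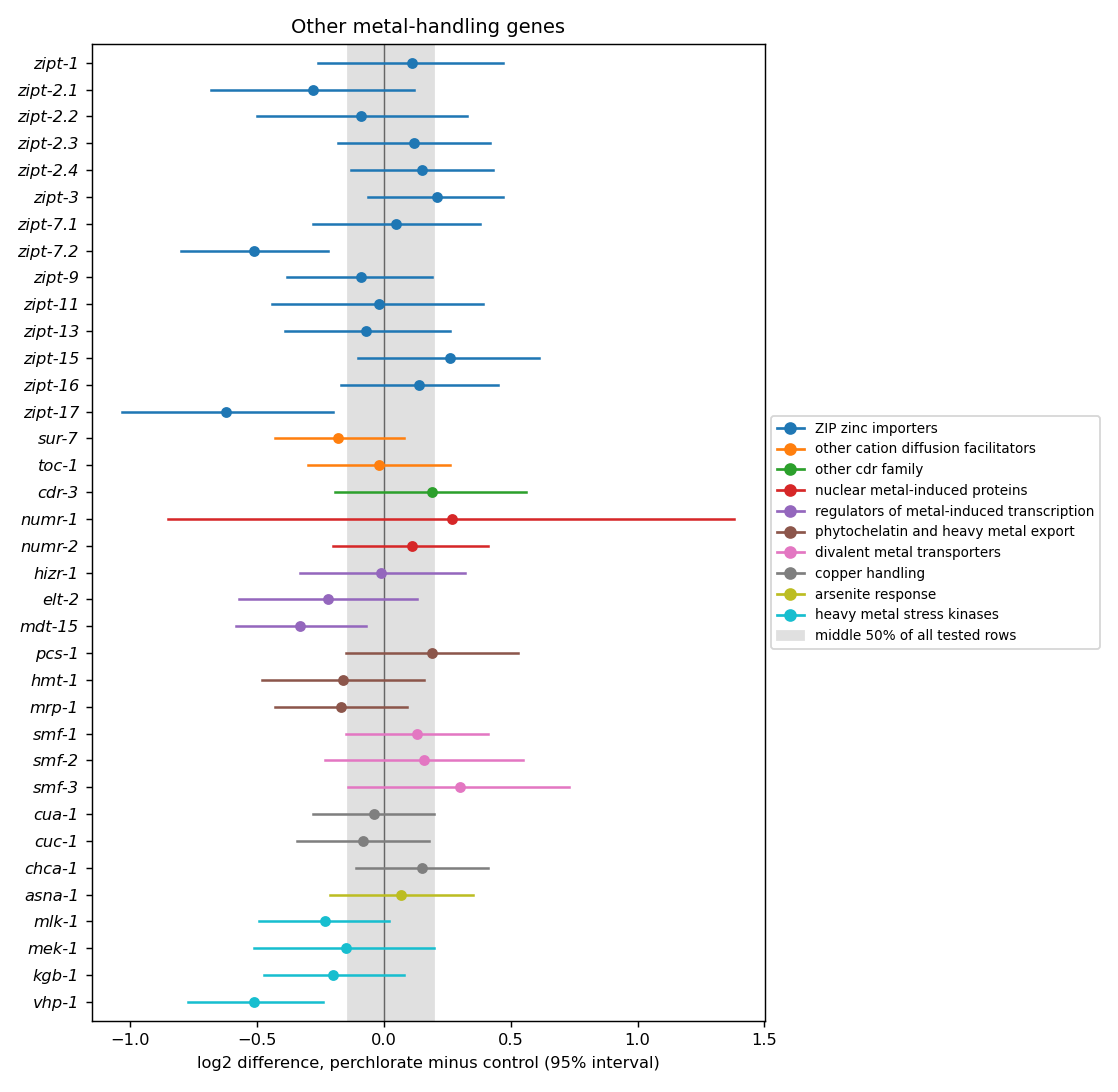
Points give the log2 difference, perchlorate minus control, of 36 other metal-handling genes grouped by role, with 95% limma intervals (n = 3 arrays per group); the grey band holds the middle 50% of all tested probe sets. The intervals of 32 genes include 0, and those of vhp-1, zipt-7.2, zipt-17 and mdt-15 lie below it, before adjustment.

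Likeness to other genes was measured as the root mean square distance over the 6 arrays between levels centred on their control means, over 11395 protein-coding genes above the median level. The nearest to mtl-1 was aex-1, a gene of the defecation motor programme, at a distance of 0.0398 log2 units, beside a median of 0.283. The next were F36A4.3 (0.0409) and R07E5.15 (0.0412). For mtl-2 they were K06B4.15 (0.0435), Y116A8C.24 (0.0436) and the neuropeptide gene flp-17 (0.0455), beside a median of 0.262. For cdr-4 they were ZK131.11 (0.0525), the lipase-like gene lipl-2 (0.0548) and the cytochrome P450 gene cyp-34A9 (0.0585), beside a median of 0.385. Levels of cyp-34A9 were 6.73, 6.73 and 6.75 on the perchlorate arrays, against 7.02, 7.11 and 7.44 on the control arrays. As in cdr-4, its perchlorate values were close to each other and control replicate 3 was the highest array. Genes were picked here for the smallest distance, so this resemblance follows from the choice and is no separate result. The median distance is no measure of how close the nearest of 11395 genes would lie by chance.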

How the data were processed

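Expression was measured in 6 whole-larva RNA samples on Affymetrix arrays, 1 array per sample. The deposited values are log2 probe set levels made by the authors; the submitters' processing notes name RMA and Affymetrix Expression Console. Software versions and the genome build are not given in the sources used here, and coordinates are left out. RMA equalises distributions between arrays, so a shift shared by all genes would not be seen. Of 29317 probe sets, the 26192 with a gene in the platform annotation were tested, and symbols were updated through the RefSeq gene table of WBcel235.

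Perchlorate and control were compared with limma 3.58.1 in R 4.3.3 (lmFit and eBayes, two-sided, Benjamini-Hochberg over all tested probe sets, threshold 0.05), with no replicate block and no further normalisation. Intervals are unadjusted moderated 95% intervals on 7.12 degrees of freedom. Ratios and values relative to intestine markers, both added after the data were seen, used exact permutation tests. Only the limma comparison was tested on simulated data, with noise drawn independently for each probe set and array. Precision is limited by the number of arrays. The members and lists were chosen with earlier results of these data known. Named genes are the 9 members, the 3 listed genes of smallest p in each direction and the 3 nearest genes of mtl-1, mtl-2 and the member of smallest p; mdt-15, hizr-1, elt-2, pcs-1, hmt-1, mlk-1, mek-1, kgb-1, numr-1 and numr-2 were named after their values were seen. Same-numbered arrays of the 2 groups deviated with correlations of 0.03, -0.02 and -0.01, so the numbers were not taken as pairs.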

Additional observations from a re-analysis of the deposited data

How the results depend on the processing

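Under 15 alternatives fixed for each of the 9 members (replicate block, each array left out, quantile normalisation again, median centring, a filter on dim probe sets, all probe sets, array weights, a trended and robust prior, 1 or the mean of all probe sets per gene), no member passed, and 131 of 135 values kept their direction. The exceptions came with arrays left out, where the difference ran from -0.05 to 0.10 for cdr-1, from -0.17 to 0 for cdr-2 and from -0.08 to 0.02 for cdr-6. Relative to the intestine markers, cdr-2 (0.13), cdr-6 (0.19) and cdf-1 (0.06) changed sign, since those markers lay lower. Members at an unadjusted limma p under 0.05 numbered 1 in the main fit and under the alternatives not named next. With the replicate block they numbered 2 (cdr-4 and cdf-2), beside 14.9% of all tested probe sets. With the trended and robust prior they numbered 2 (cdr-4 and mtl-2), beside 18.1%. With an array left out they numbered 1 to 2, beside 10.7% to 17.5%. Members whose groups lay apart numbered 3 in the main fit, beside 24% of all tested probe sets, and 4 with median centring, beside 23%. With an array left out they numbered 3 to 5, beside 30.7% to 37.4%. The 5 came without perchlorate replicate 2, where the share of all probe sets was 37.4%. The other alternatives counted gave 3, beside 23.2% to 27.7%. Of the 36 other metal-handling genes 0 passed, except 1 (vhp-1) with the trended and robust prior. Over all tested probe sets the 2 calls became 0 with the replicate block, with any array left out (0 to 0) and with 1 probe set per gene, 1 with quantile normalisation, with centring and with all probe sets, and 328 (103 higher, 225 lower) with the trended and robust prior; the cause was not tested. A p above the threshold does not show that the levels were equal. The replicate block changed no other count by over 1.5 times, with limma adjusted p of 0.266 for cdr-4.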
